A study of Mus musculus with 10 samples.

Results

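Zfp is the mouse gene prefix for zinc finger protein, and most genes that carry it encode proteins with C2H2 fingers, short loops in which a pair of cysteines and a pair of histidines hold a zinc ion. Arrays of such fingers bind DNA, and in a minority of the proteins RNA or other proteins. Many of the proteins also carry a KRAB box, a short domain that recruits the corepressor Trim28 and through it the histone methyltransferase Setdb1, which silence transposable elements and some genes. KRAB zinc finger genes lie mainly in tandem clusters that arose by duplication.

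The genes described here were those whose symbol starts with Zfp and a digit, without Zfp36, Zfp36l1 and Zfp36l2, whose fingers are of another class, and with at least 1 FPKM (fragments scaled to gene length and library size) in at least 5 of the 10 samples. Of 376 such symbols among the 16936 protein-coding genes of the deposited table, 232 reached this level. They were measured by total RNA sequencing in mouse bone marrow-derived macrophages, grown over 7 days with 50 ng/mL of GM-CSF. Untreated cultures (5 samples) were compared with cultures given PLG, human plasminogen, for 24 h (5 samples). No label named a strain, age, sex or genotype or tied a replicate to a mouse or culture, so the spread that p-values rest on here may be technical.

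The 232 genes were chosen by level in any 5 samples and not by the difference between the groups, except where a gene reached 1 FPKM in 1 group only. This held for 3 genes, Zfp395, Zfp970 and Zfp821, which had to differ. They stand in the counts over all 232 members, and the counts for the other 229 are given beside the first of them. The members nearest to the level were Zfp280d, Zfp760 and Zfp579, which in the sample ranked 5 from the top had 1.043, 1.046 and 1.05 FPKM. Just outside it were Zfp827, Zfp469 and Zfp456, at 0.989, 0.981 and 0.971 FPKM. Of the 144 genes under the level, 105 reached 1 FPKM in no sample and 108 encoded a KRAB box.

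The finger type and its arrangement are shown by the first finger of 8 genes whose RNA levels changed most or whose fingers are closely related. The coding bases come from GENCODE release M21, on GRCm38, and the capitals mark the codons of the cysteines and histidines that bind zinc. These were:
Zfp366: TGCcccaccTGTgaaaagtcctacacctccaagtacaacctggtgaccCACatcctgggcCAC
Zfp710: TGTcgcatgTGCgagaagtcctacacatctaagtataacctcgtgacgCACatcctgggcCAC
Zfp52: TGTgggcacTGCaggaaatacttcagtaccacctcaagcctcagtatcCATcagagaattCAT
Zfp51: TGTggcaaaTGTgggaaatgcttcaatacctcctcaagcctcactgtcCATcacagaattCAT
Zfp598: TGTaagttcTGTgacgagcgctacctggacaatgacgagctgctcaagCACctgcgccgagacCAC
Zfp217: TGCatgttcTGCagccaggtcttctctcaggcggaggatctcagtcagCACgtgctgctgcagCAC
Zfp652: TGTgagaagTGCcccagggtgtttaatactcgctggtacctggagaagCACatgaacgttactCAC
Zfp385a: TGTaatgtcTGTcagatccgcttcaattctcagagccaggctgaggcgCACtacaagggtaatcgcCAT
In Zfp366, Zfp710, Zfp52 and Zfp51, 3 residues separate the histidines. In Zfp598, Zfp217 and Zfp652 the spacing is 4 residues, and in Zfp385a it is 5. The first fingers of Zfp366 and Zfp710 have 52 of 63 bases in common (82.5%), and each protein has 11 fingers by the pattern used. Zfp52 and Zfp51 also have 52 of 63 bases in common, with 14 and 19 fingers. Between Zfp366 and Zfp52 the identity was 26 of 63 bases (41.3%). Over all 232 genes the number of fingers ran from 0 to 36, with a median of 10, and 126 genes encoded a KRAB box.

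After PLG, 48 of the 232 Zfp genes rose and 41 fell, by limma on log2(FPKM + 1) with an adjusted p under 0.05 over the 9997 genes tested. That is 38.4% of the members, against 60.4% of all genes tested, of which 29.1% rose and 31.3% fell. In the 229 members that reached 1 FPKM in both groups, 47 rose and 39 fell. The median log2 fold change of the members was 0.0166, beside -0.018 over all genes tested. In these 229 members a fold of at least 1.5 was passed by 13 genes that rose and 7 that fell, against 14.5% and 13.3% of all genes. A fold of at least 2 was passed by 2 in each direction, against 8.35% and 5.67% of all genes. The values of the 5 PLG samples all lay above the 5 untreated ones in 23 of the 229 members and all below in 28. Over all genes the shares were 22.7% and 24.5%, 47.2% in all.

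The split between rises and falls moved with the scaling, in the members and in all genes together. With a trend on gene length removed, 38 members rose and 55 fell, and among all genes 2713 rose and 3579 fell. With a trend on GC content removed the members' counts were 39 and 51 and those of all genes 2645 and 3621. With 3 repeat-like gene models removed and the samples brought to a common sum, they were 36 and 52 in the members and 2589 and 3645 in all genes. The members' medians in these fits (-0.0223, -0.0157 and -0.0333) lay above those of all genes (-0.0625, -0.0691 and -0.074), as in the fit without these changes. No called member was called in the opposite direction in any of the 26 alternative fits, and 56 of the 89 passed in every fit that tested them (30 that rose and 26 that fell). In the 190 members at 1 FPKM or more in all 10 samples, 40 rose and 36 fell, against 59.6% called among all genes at that level (28.2% that rose and 31.4% that fell).

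**Figure D1:**
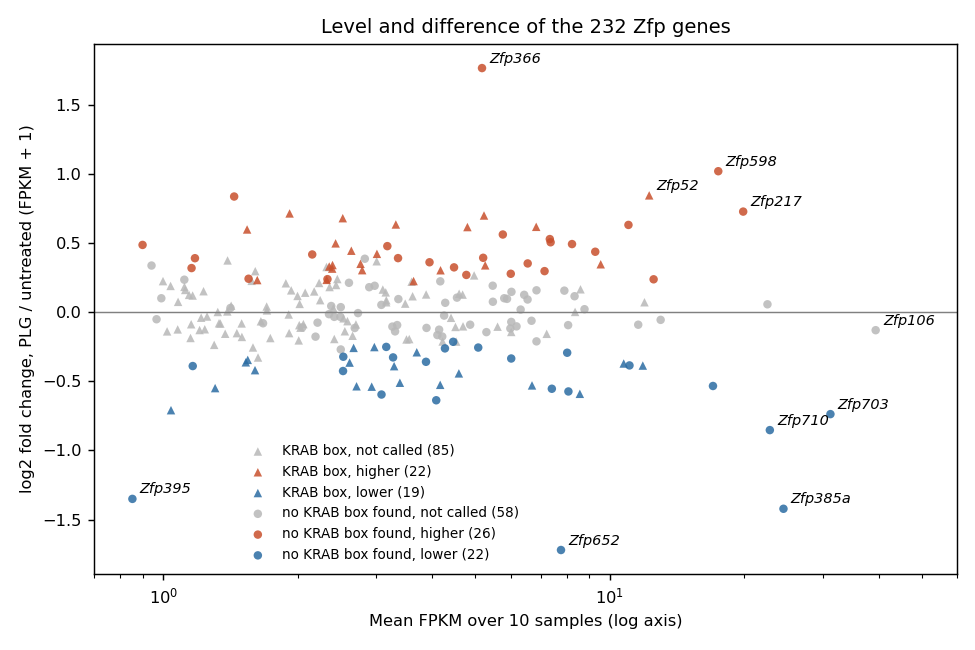
Mean FPKM over the 10 samples (x, log axis) and log2 fold change of PLG against untreated (y, on log2(FPKM + 1)) for the 232 Zfp genes. Triangles are genes with a KRAB box and circles those without one found, coloured where the adjusted p was under 0.05. Zfp366 stands at the top with 1.77 and Zfp652 at the bottom with -1.72.

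The members were expressed at low levels, with a median of their means of 3.04 FPKM against 7.22 FPKM over all genes tested, and the share called moved with the level. Among members under 2 FPKM, 24.6% of 61 were called, against 49.5% of all genes in that range. The 61 include Zfp395, Zfp970 and Zfp821, which had to differ and were all called. From 2 to 5 FPKM the shares were 37.0% of 108 members and 51.2% of all genes, and from 5 to 10 FPKM 47.8% of 46 members and 59.4%. At 10 FPKM or more, 70.6% of 17 members and 70.5% of all genes were called. In simulated data with the spread of these samples, 80% of 50 genes changed 1.5-fold were called, over all levels. Of 50 genes changed by a factor 25% above 1, 42% were called. In that simulation 9797 of 9997 genes were left unchanged, whereas 60.4% of genes were called in the real fit. The folds were also set on log2(FPKM + 1), so these shares do not give the recovery in the real data. The median absolute log2 fold change of the members was 0.194, beside 0.301 over all genes tested. By level, from the lowest range to the highest, it was 0.162, 0.197, 0.201 and 0.386 in the members. In all genes of the same ranges it was 0.291, 0.272, 0.279 and 0.352.

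**Figure D2:**
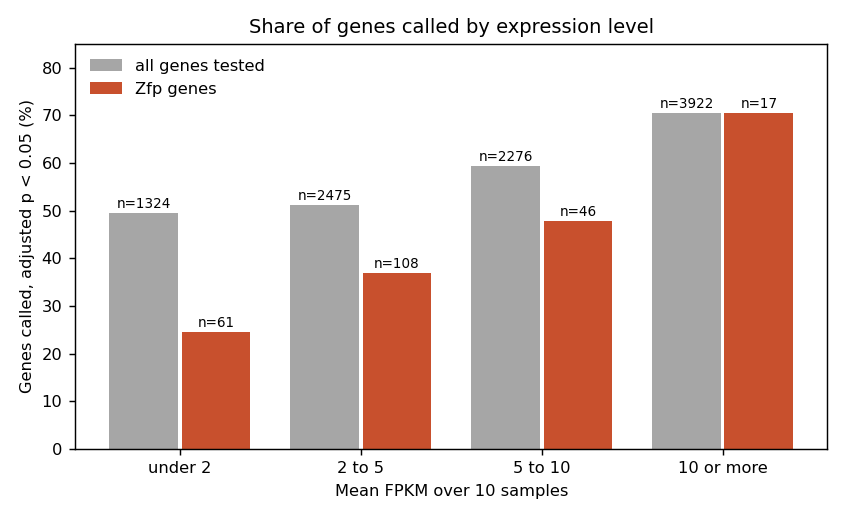
Share of genes called at an adjusted p under 0.05 (y, percent) by mean FPKM over the 10 samples (x), for all genes tested (grey) and the Zfp genes (orange), with the number of genes over each bar. The shares are 24.6% of Zfp genes and 49.5% of all genes under 2 FPKM, and 70.6% and 70.5% at 10 FPKM or more. The Zfp genes under 2 FPKM include Zfp395, Zfp970 and Zfp821, which had to differ.

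The gene with the largest rise was Zfp366, known as DC-SCRIPT, a nuclear protein of dendritic cells that binds nuclear receptors and corepressors. Its level was 2.89, 1.79, 1.78, 0.951 and 1.84 FPKM in untreated replicates 1 to 5 and 8.25, 8.03, 8.18, 8.48 and 9.54 FPKM in PLG replicates 1 to 5. All PLG samples lay above all untreated samples. The mean went from 1.85 ± 0.69 to 8.50 ± 0.604 FPKM (SD, n = 5 each), a log2 fold change of 1.77 ± 0.141 (SE, adjusted p = 1.05e-07, limma). Of 8 dendritic cell markers, 3 rose with PLG (Ccr7, Zbtb46 and Flt3) and 3 fell (Cd209a, Itgax and H2-Ab1), while Xcr1 and Siglech stayed under 1 FPKM in all samples. The summed level of the 8 markers was 567 to 694 FPKM in untreated and 905 to 998 FPKM in PLG samples, and the rise of the sum was that of Ccr7 (means 38.1 and 542 FPKM), since Itgax went from 270 to 156 FPKM and H2-Ab1 from 313 to 248 FPKM. The part of the dendritic cell markers in the rise of Zfp366 was not tested, and in RNA of a whole culture more cells of a type and more RNA per cell cannot be told apart.

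Zfp710, whose first finger is so close to that of Zfp366, went the other way. It measured 29.5, 31.5, 28.0, 29.4 and 29.8 FPKM in the untreated samples and 15.1, 16.8, 14.5, 16.2 and 17.3 FPKM with PLG. The groups were well apart, and the log2 fold change was -0.85 ± 0.0567 (adjusted p = 1.57e-08). By mean level Zfp710 was among the 6 most abundant members.

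Among the members with a role in translation, Zfp598 rose most. Zfp598 is a ubiquitin ligase that marks ribosomes which have collided on an mRNA. Its level was 9.67, 11.6, 13.3, 12.1 and 9.59 FPKM in untreated and 22.2, 25.9, 22.1, 24.1 and 24.3 FPKM in PLG samples. Every PLG sample was higher than the highest untreated one, and the log2 fold change was 1.02 ± 0.0857 (adjusted p = 1.73e-07). Zfp622, a factor in the maturation of the large ribosomal subunit, rose from 4.46 ± 0.29 to 7.06 ± 0.407 FPKM (log2 fold change 0.56 ± 0.0676, adjusted p = 6.67e-06), also with no overlap.

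Of the 12 genes listed for RNA, ribosomes and translation 11 were tested, and 3 rose and 3 fell (54.5%, against 60.4% of all genes). The other rise was that of Zfp346, which binds double-stranded RNA: 2.05 ± 0.199 FPKM became 2.62 ± 0.427 FPKM (adjusted p = 0.0433). This call was lost when untreated replicate 1, 3 or 4 or PLG replicate 3, 4 or 5 was left out, with adjusted p from 0.0659 to 0.118. Zfp346 passed in 11 of 25 alternative fits, with an adjusted p of up to 0.219 in the others. The falls were those of Zfp385a, Zfp706 and Zfp326. Zfp385a, a protein that binds RNA and p53, measured 38.6, 40.9, 34.96, 39.99 and 26.5 FPKM in untreated samples. With PLG it measured 13.9, 13.3, 11.99, 11.7 and 12.9 FPKM, all below the lowest untreated sample (log2 fold change -1.42 ± 0.102, adjusted p = 3.39e-08). Zfp706 fell from 20.3 ± 0.865 to 13.7 ± 0.877 FPKM (adjusted p = 1.61e-06). Zfp326, a subunit of a complex that links transcription elongation and splicing, fell from 3.75 ± 0.348 to 2.79 ± 0.341 FPKM (adjusted p = 0.00477), a call that scaling to a common sum removed (adjusted p = 0.08). The 5 genes that did not pass (Zfp106, Zfp207, Zfp330, Zfp638 and Zfp830) had log2 fold changes of -0.13 to 0.10.

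The most abundant member was Zfp106, an RNA-binding protein needed in motor neurons. It measured 41.2 ± 2.05 FPKM in untreated and 37.6 ± 2.38 FPKM in PLG samples, and the groups overlapped (log2 fold change -0.13 ± 0.0537, adjusted p = 0.0519). It passed the threshold in 10 of 26 alternative fits, among them those without untreated replicate 2 or 3 or PLG replicate 4 or 5 (adjusted p 0.0444, 0.0429, 0.039 and 0.0346). Zfp207, a mitotic spindle protein that also acts in splicing, measured 22.1 ± 1.2 and 23.0 ± 0.437 FPKM (adjusted p = 0.325). Among members at 5 FPKM or more, the changes closest to 0 were also seen in Zfp219, Zfp335, Zfp516, which acts in brown fat, and Zfp830. Their log2 fold changes were 0.02, 0.02, -0.05 and -0.06 (adjusted p 0.895, 0.875, 0.52 and 0.598). Zfp830 passed only with the length trend removed (adjusted p = 0.0402).

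Of 37 regulators listed for chromatin complexes and DNA binding 28 were tested, and 7 rose and 8 fell (53.6%, against 60.4% of all genes). The 8 include Zfp395, which had to differ. The median log2 fold change was -0.0649 beside -0.018 over all genes. The rise with the smallest p was that of Zfp217, a DNA-binding partner of histone demethylase and deacetylase corepressors. Its level was 14.8, 14.1, 14.8, 15.0 and 15.0 FPKM in untreated and 24.3, 24.4, 24.9, 25.7 and 26.0 FPKM in PLG samples. Within each group the values lay close together and the groups were far apart (log2 fold change 0.73 ± 0.0451, adjusted p = 7.27e-09).

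Zfp281, which binds GC-rich promoters, rose from 5.82 ± 0.542 to 8.85 ± 0.854 FPKM (adjusted p = 5.98e-05), while its relative Zfp148 measured 6.44 ± 0.479 and 5.92 ± 0.242 FPKM (adjusted p = 0.2). Whether the 2 genes differed in their response was not tested. Zfp687 and Zfp592 encode partners in a complex with Zmynd8. Zfp687 rose from 3.35 ± 0.591 to 4.55 ± 0.197 FPKM (adjusted p = 0.0041). Zfp592 fell from 8.94 ± 1.09 to 7.11 ± 0.894 FPKM (adjusted p = 0.0168), but with a common sum its adjusted p was 0.0606. Zfp131, with a BTB domain, rose from 6.31 ± 0.637 to 7.97 ± 0.426 FPKM (adjusted p = 0.00307). Zfp451, a SUMO ligase, rose from 3.89 ± 0.723 to 5.07 ± 0.219 FPKM (adjusted p = 0.00928). The 13 listed genes that did not pass were Zfp24, Zfp143, Zfp148, Zfp276, Zfp277, Zfp292, Zfp318, Zfp335, Zfp384, Zfp410, Zfp516, Zfp568 and Zfp644. Their log2 fold changes ran from -0.21 to 0.15, and those of Zfp318 and Zfp644 passed with the GC trend removed (adjusted p 0.0438 and 0.0352).

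The largest fall of all members was that of Zfp652, a repressor that acts with corepressors of the ETO family. It measured 14.2, 12.2, 10.1, 12.01 and 13.9 FPKM in untreated and 3.35, 2.81, 2.92, 3.18 and 3.09 FPKM in PLG samples. The lowest untreated sample was far above the highest PLG sample (log2 fold change -1.72 ± 0.0874, adjusted p = 9.58e-10). Zfp703 and Zfp503 are related corepressors in which the finger pattern was not found, and both fell. Zfp703 measured 46.3, 40.4, 40.2, 34.2 and 35.4 FPKM in untreated and 25.2, 22.8, 22.2, 22.6 and 22.5 FPKM in PLG samples, without overlap (log2 fold change -0.74 ± 0.0748, adjusted p = 1.22e-06). Zfp503 fell from 3.89 ± 0.176 to 2.27 ± 0.502 FPKM (adjusted p = 0.000235). Zfp704 fell from 9.86 ± 0.351 to 6.30 ± 0.241 FPKM (adjusted p = 8.18e-07).

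Zfp395, a relative of Zfp704, was one of the 3 members that reached 1 FPKM in 1 group only, and such genes had to differ between the groups. It measured 1.83, 1.92, 1.16, 2.15 and 1.29 FPKM in untreated samples and 0, 0.052, 0.022, 0.014 and 0.096 FPKM with PLG. Zfp970, a KRAB gene, had 1.10 to 2.19 FPKM untreated and 0.293 to 0.757 FPKM with PLG. It shares 52.19% of its 50-base stretches with other genes, so its value also depends on how reads were divided. Zfp821 had 0.409 to 0.860 FPKM untreated and 1.15 to 1.37 FPKM with PLG.

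Zfp367 fell from 3.05 ± 0.462 to 2.01 ± 0.23 FPKM (adjusted p = 0.0016). Among 8 markers of cycling cells 7 fell with PLG and 1, Mki67, rose, and their summed level was 68.1 to 79.7 FPKM in untreated and 52.6 to 56.3 FPKM in PLG samples. The part of cycling cells in the fall of Zfp367 was not tested.

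Zfp91 and Zfp64 are known from innate signalling. Zfp91 is a ubiquitin ligase that acts on the kinase of the non-canonical NF-kB pathway, and it measured 12.6, 12.95, 11.9, 12.1 and 13.7 FPKM in untreated and 9.29, 8.29, 10.9, 9.90 and 9.03 FPKM in PLG samples. All PLG samples were lower (log2 fold change -0.38 ± 0.0714, adjusted p = 0.000367). Zfp64, which has been linked to Toll-like receptor signalling through the NF-kB subunit p65, measured 2.46 ± 0.394 and 2.37 ± 0.126 FPKM with overlapping groups (log2 fold change -0.03 ± 0.0889, adjusted p = 0.769).

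**Figure D3:**
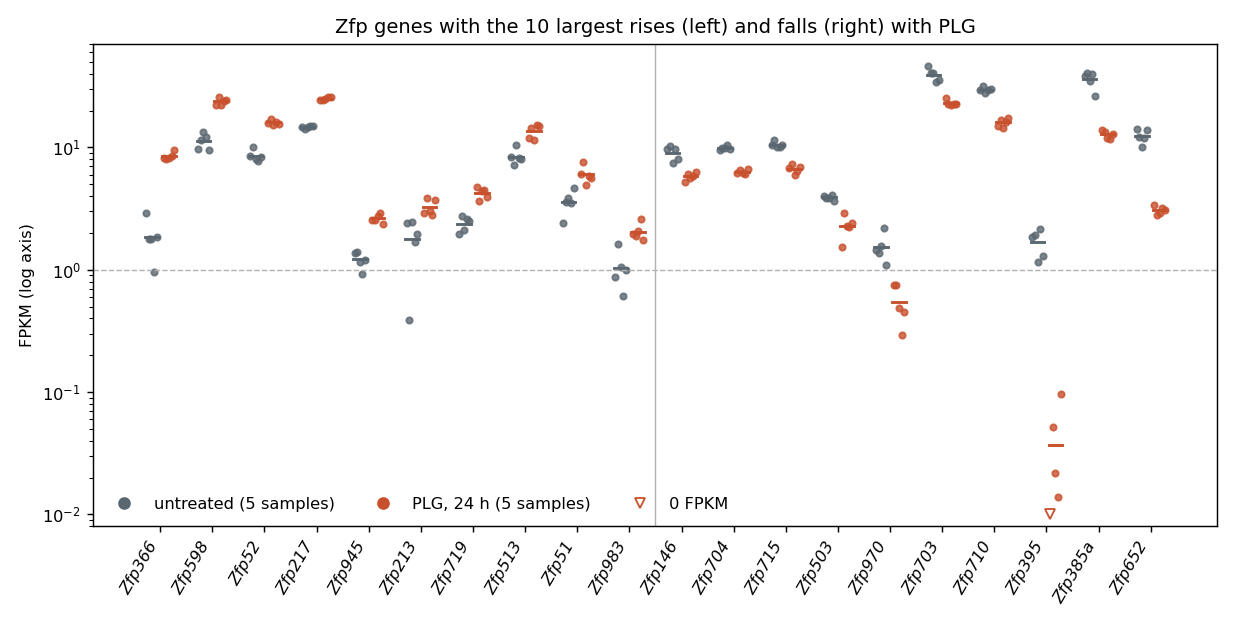
FPKM (y, log axis) of each sample for the members with the 10 largest rises (left) and the 10 largest falls (right) among genes whose groups did not overlap, with untreated samples in grey and PLG samples in orange, the mean as a bar and 1 FPKM as a dashed line. Zfp652 fell from 10.1 or more to 3.35 FPKM or less, and the open triangle marks 1 PLG sample of Zfp395 at 0.

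The 126 KRAB genes were lower in level (median of means 2.40 FPKM) than the 106 members without a KRAB box found (4.37 FPKM). Among KRAB genes 22 rose and 19 fell, 32.5% in all, and among the others 26 and 22, 45.3%. Of all genes tested 60.4% were called. Under 2 FPKM the shares were 16.7% of 48 KRAB genes and 53.8% of 13 others. The 48 include Zfp970 and the 13 Zfp395 and Zfp821, which had to differ. From 2 to 5 FPKM the shares were 38.1% of 63 and 35.6% of 45. From 5 to 10 FPKM they were 54.5% of 11 and 45.7% of 35, and at 10 FPKM or more 75.0% of 4 and 69.2% of 13. The median log2 fold changes of the KRAB genes and the others were 0.00977 and 0.0209. With the length trend removed, which also left 2713 rises and 3579 falls among all genes, the KRAB counts were 19 and 28. Whether the groups differed was not tested. By finger number, members with 10 or more fingers had 25 rises and 13 falls among 125 genes, those with 4 to 9 had 19 and 18 among 78, and those with up to 3 had 4 and 10 among 29, beside 29.1% and 31.3% of all genes. The 4 and 10 include Zfp821 and Zfp395. For 10 or more fingers the rises outnumbered the falls with common-sum (20 and 10), median-of-ratios (28 and 13) and quantile scaling (25 and 14). They did not with the length trend (19 and 20), the GC trend (17 and 20) or the repeat-like models removed (16 and 20), or without untreated replicate 4 (17 and 19). For up to 3 fingers the falls outnumbered the rises in each of the 25 alternative fits that kept the level of 1 FPKM or lower, with 4 to 5 rises and 7 to 13 falls.

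The most abundant KRAB gene was Zfp52, and it had the largest rise among them. Its level was 8.48, 9.98, 7.97, 7.72 and 8.29 FPKM in untreated and 15.9, 17.1, 15.4, 16.02 and 15.6 FPKM in PLG samples. The groups did not overlap (log2 fold change 0.85 ± 0.0675, adjusted p = 1.02e-07). Zfp945 rose from 1.21 ± 0.19 to 2.63 ± 0.214 FPKM (adjusted p = 7.69e-06), Zfp719 from 2.39 ± 0.34 to 4.25 ± 0.426 FPKM (adjusted p = 3.93e-05) and Zfp51 from 3.60 ± 0.82 to 6.002 ± 0.969 FPKM (adjusted p = 0.00105). Zfp213 rose from 1.78 ± 0.843 to 3.27 ± 0.497 FPKM (adjusted p = 0.0128), with untreated replicate 2 at 0.39 FPKM. Zfp983 rose from 1.03 ± 0.375 to 2.05 ± 0.334 FPKM (adjusted p = 0.001). Of the members without a KRAB box, Zfp513 completed the 10 largest rises among genes whose groups did not overlap, from 8.42 ± 1.2 to 13.6 ± 1.76 FPKM (adjusted p = 8.98e-05). Zfp296, singled out after its values were seen, rose by more on the log2 scale (0.84 ± 0.214, adjusted p = 0.00398), with 0 to 1.74 FPKM untreated and 1.61 to 2.72 FPKM with PLG.

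For some KRAB proteins the target is known. Zfp809, which silences murine leukaemia proviruses through their primer binding site, rose from 5.31 ± 1.94 to 8.37 ± 0.611 FPKM (log2 fold change 0.62 ± 0.163, adjusted p = 0.00499). The groups overlapped through untreated replicate 2 at 8.40 FPKM. Zfp568, which represses a placental transcript of Igf2, measured 4.93 ± 0.519 and 4.12 ± 0.456 FPKM (log2 fold change -0.21 ± 0.0872, adjusted p = 0.0502). It passed the threshold in 9 of 25 alternative fits, among them those without untreated replicate 4 or PLG replicate 1 (adjusted p 0.0175 and 0.0324). After Zfp970 the largest fall of a KRAB gene was that of Zfp715, which had 10.1 to 11.5 FPKM in untreated and 5.89 to 7.29 FPKM in PLG samples (log2 fold change -0.59 ± 0.0657, adjusted p = 3.13e-06).

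Close paralogs limit these values. In 40 members over 10% of the 50-base stretches of the transcripts also occur in another gene, and 34 of these are KRAB genes. Of the 40, 8 were called, beside 38.4% of all members and 60.4% of all genes. In Zfp991, which measured 8.34 ± 1.47 and 8.38 ± 1.65 FPKM (adjusted p = 0.989), the share was 86.7%, so its reads may be divided between copies.

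Most of the members had neighbours of their kind. A further member lay within 1 Mb of 146 of the 232, and of 107 of the 126 KRAB genes. There were 10 runs of at least 5 members, each within 1 Mb of the next, with 88 members. The longest run, chr17:21008903-23564238, held 19 members, all with a KRAB box. Here 8 genes rose, 2 fell and the median log2 fold change was 0.225. Among all genes tested 29.1% rose and 31.3% fell, 60.4% in all, with a median of -0.018. The genes that rose were Zfp677, Zfp51, Zfp53, Zfp52, Zfp983, Zfp758, Zfp945 and Zfp213, and those that fell were Zfp994 and Zfp946. They lay among neighbours that did not pass: Zfp948, next to Zfp52, measured 4.77 ± 1.75 and 4.25 ± 0.931 FPKM (log2 fold change -0.11 ± 0.179, adjusted p = 0.634). Over the 25 alternative fits at that level, 6 to 8 of the run rose, 0 to 4 fell, and the median stayed between 0.0934 and 0.404. The calls of Zfp677, Zfp53 and Zfp946 were each lost on leaving out single libraries: untreated replicate 4 or PLG replicate 1 or 3 for Zfp677 (adjusted p 0.0544, 0.0524 and 0.0536), untreated replicate 1 or PLG replicate 2, 4 or 5 for Zfp53 (0.0562, 0.0562, 0.0548 and 0.0522), and untreated replicate 3 or PLG replicate 4 or 5 for Zfp946 (0.053, 0.0525 and 0.0592).

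Other runs looked different. On chromosome 13 a run of 14 KRAB genes (chr13:67121660-67755228) held a single rise, that of Zfp429, and a median of -0.0133. At chr7:29768552-30169750 all 8 members had a negative log2 fold change, with a median of -0.169, and Zfp382 and Zfp146 fell. Zfp146 went from 9.03 ± 1.2 to 5.80 ± 0.41 FPKM (adjusted p = 8.85e-05) and Zfp382 from 5.13 ± 0.991 to 3.22 ± 0.278 FPKM (adjusted p = 0.00105). At chr7:27731389-27979171 all 5 members had a positive log2 fold change, with a median of 0.227. Here 2 rose, or 0 to 3 over the 25 alternative fits. At chr17:32765496-33631779, 7 of 8 members were negative, with a median of -0.16, and 1 fell. The shares over all genes tested were 29.1% that rose and 31.3% that fell. Runs were not tested against each other or against genes elsewhere, and neighbouring genes are not independent.

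**Figure D4:**
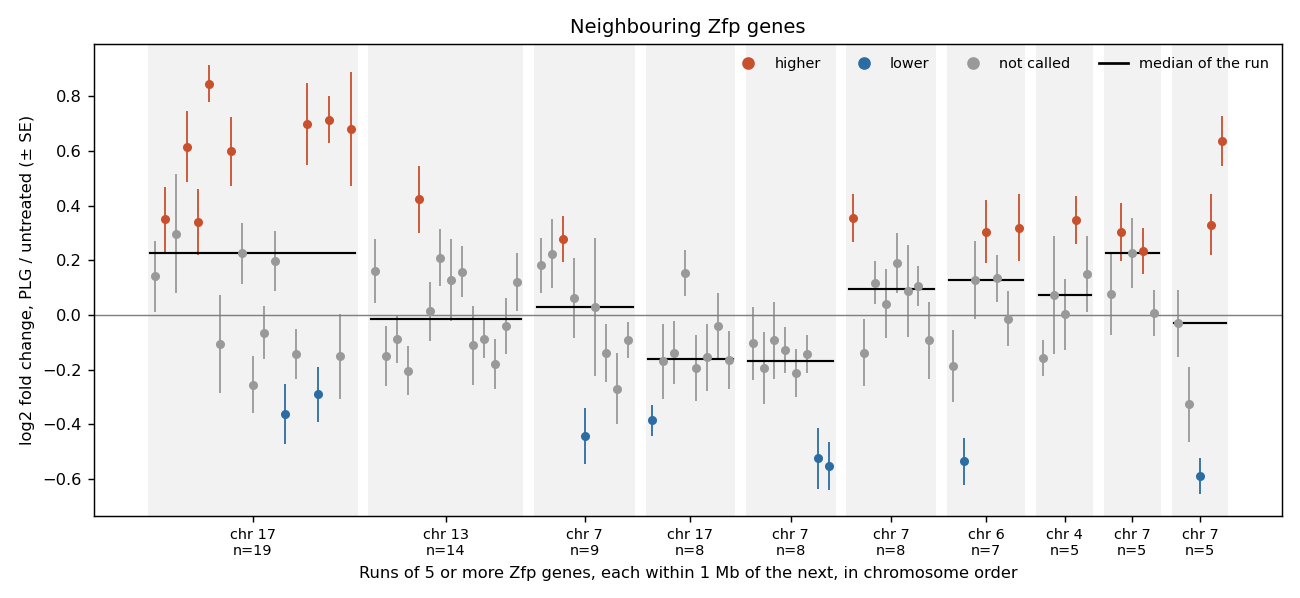
Log2 fold change of PLG against untreated with its SE (y, on log2(FPKM + 1)) for the members of the 10 runs of neighbouring Zfp genes, in chromosome order within each run (x), with rises in orange, falls in blue and the median of each run as a black line. The run of 19 on chromosome 17 has 8 rises and a median of 0.225, and all 8 points of the first run of 8 on chromosome 7 lie below 0.

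The regions just before the starts of Zfp598 and Zfp52 are shown because both genes lie on chromosome 17, rose by the largest amounts after Zfp366, and have a RefSeq start at the same base as in the deposited table. Each is the plus strand of GRCm38.p6, 250 bases up to the base before the start, with GCGGAAGT and GGGCGG on either strand in capitals. They are chr17:24669437-24669686 for Zfp598 and chr17:21535289-21535538 for Zfp52.
Zfp598: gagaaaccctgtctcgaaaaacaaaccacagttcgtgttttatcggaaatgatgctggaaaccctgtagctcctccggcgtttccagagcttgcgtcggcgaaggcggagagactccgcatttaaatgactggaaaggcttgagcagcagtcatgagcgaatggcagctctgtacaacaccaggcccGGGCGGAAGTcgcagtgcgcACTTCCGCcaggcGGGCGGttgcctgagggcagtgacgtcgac
Zfp52: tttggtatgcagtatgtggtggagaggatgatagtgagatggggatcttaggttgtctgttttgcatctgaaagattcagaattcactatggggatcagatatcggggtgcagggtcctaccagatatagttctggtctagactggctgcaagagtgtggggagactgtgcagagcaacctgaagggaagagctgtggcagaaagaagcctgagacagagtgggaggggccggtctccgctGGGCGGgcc
The Zfp598 window holds GCGGAAGT once on each strand and GGGCGG on the plus strand, of which one copy overlaps GCGGAAGT. The Zfp52 window holds GGGCGG once. In all, 9 motifs were searched on both strands of the RefSeq windows, of which 242 belonged to 197 members and 32851 to all genes, and GCGGAAGT and CCGGAAGT were chosen after windows of members had been read. GCGGAAGT occurred in 8.26% of member windows and 1.34% of all windows, and CCGGAAGT in 9.09% and 2.88%. The shares were 45.5% and 33.8% for CCAAT, 43.8% and 32.7% for GGGCGG, and 4.55% and 1.55% for TGACGTCA. They were 7.02% and 7.25% for the NF-kB motif, 5.37% and 6.02% for CACGTG, 2.89% and 6.75% for TGANTCA, and 1.65% and 2.98% for the repeat of the interferon-stimulated response element. These matches describe the letters only.

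The proteins through which KRAB zinc finger proteins repress were followed in a list of 40 genes, of which 38 were tested. Among them 11 rose and 7 fell, 47.4% against 60.4% of all genes, and the median log2 fold change was 0.0039. Trim28, the corepressor that binds the KRAB box, measured 25.1 ± 2.21 and 26.3 ± 0.833 FPKM (log2 fold change 0.06 ± 0.0603, adjusted p = 0.375). Mta2, Resf1 and Rbbp7, the other abundant genes that did not pass, had log2 fold changes of -0.03, 0.00 and 0.08 (adjusted p 0.612, 0.969 and 0.347), and Mta2 passed only with quantile normalization (adjusted p = 0.0118). Setdb1, the methyltransferase that Trim28 recruits, fell from 10.5 ± 1.13 to 7.59 ± 0.426 FPKM (adjusted p = 0.000245). Cbx5, the heterochromatin protein HP1 alpha, fell from 6.496 ± 0.778 to 3.84 ± 0.327 FPKM (adjusted p = 2.07e-05). Its relatives Cbx1 and Cbx3 did not pass (log2 fold changes 0.014 and -0.004, adjusted p 0.897 and 0.976). The listed methyltransferases Ehmt2 and Suv39h2 rose (log2 fold changes 0.26 and 0.55, adjusted p 0.000519 and 0.0004). Their relatives Ehmt1 and Suv39h1 did not pass (log2 fold changes 0.17 and -0.12, adjusted p 0.0859 and 0.269).

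The largest log2 fold change on the list was that of Dnmt3a, which sets new DNA methylation. It measured 37.1, 39.9, 39.7, 43.2 and 42.5 FPKM in untreated and 15.4, 15.2, 16.5, 16.9 and 15.9 FPKM in PLG samples. The groups were far apart (log2 fold change -1.29 ± 0.0535, adjusted p = 1.28e-10). Dnmt1 and Uhrf1, which maintain methylation after replication, fell from 27.7 ± 1.58 to 18.9 ± 0.705 FPKM (adjusted p = 8.67e-07) and from 4.02 ± 0.426 to 2.04 ± 0.47 FPKM (adjusted p = 6.86e-05). The cycling markers given beside Zfp367 moved in the same samples, and their part in these falls was not tested.

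Daxx, a chaperone of histone H3.3, measured 13.5, 14.9, 9.86, 11.2 and 12.3 FPKM in untreated and 26.6, 30.2, 29.3, 31.1 and 28.3 FPKM in PLG samples. All PLG samples were higher (log2 fold change 1.18 ± 0.0906, adjusted p = 6.62e-08). Its partner Atrx rose from 10.5 ± 0.972 to 14.4 ± 0.382 FPKM (adjusted p = 4.93e-05). Tasor and Pphln1, subunits of the HUSH silencing complex, rose from 3.44 ± 0.274 to 5.51 ± 0.398 FPKM (adjusted p = 1.86e-05) and from 9.44 ± 0.514 to 13.4 ± 0.565 FPKM (adjusted p = 7.53e-06). The other HUSH subunit, Mphosph8, measured 6.85 ± 1.04 and 5.91 ± 0.344 FPKM (log2 fold change -0.18, adjusted p = 0.11), and its partner Morc2a 6.35 ± 0.518 and 5.54 ± 0.281 FPKM (-0.17, adjusted p = 0.0523). Trim24, a relative of Trim28, rose from 2.15 ± 0.426 to 4.49 ± 0.46 FPKM (adjusted p = 1.13e-05). Chd3, a remodeller of the NuRD complex, fell from 10.3 ± 0.675 to 5.65 ± 0.325 FPKM (adjusted p = 1.77e-07). Of other NuRD genes on the list, Chd4 also fell (log2 fold change -0.18, adjusted p = 0.00444). Hdac1 and Rbbp4 rose (log2 fold changes 0.54 and 0.26, adjusted p 4.86e-05 and 0.0301), and Hdac2 and Mta1 did not pass (adjusted p 0.746 and 0.926).

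**Figure D5:**
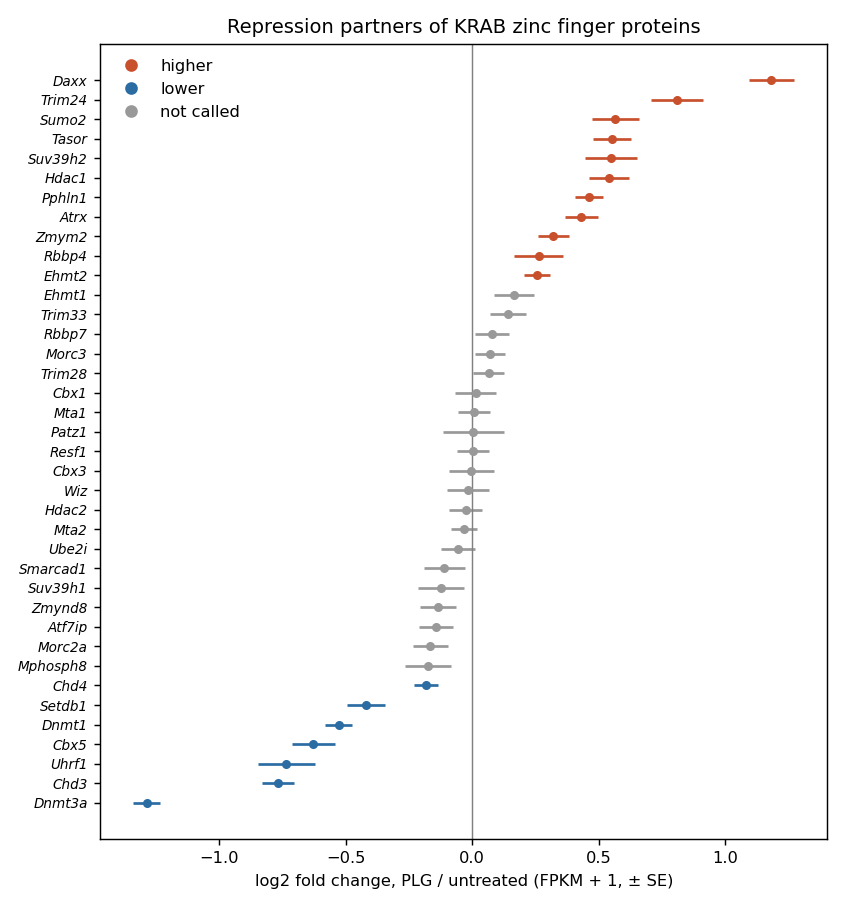
Log2 fold change of PLG against untreated with its SE (x, on log2(FPKM + 1)) for the 38 tested partners of KRAB zinc finger proteins (y), with rises in orange, falls in blue and genes that did not pass in grey. Daxx stands at 1.18 and Dnmt3a at -1.29, with Trim28 at 0.06.

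Other zinc finger families were counted by symbol, beside 60.4% called among all genes. Of 33 Zbtb genes, which carry a BTB domain, 6 rose and 3 fell (27.3%), and of 15 Zscan and Zkscan genes 4 rose and 1 fell (33.3%). The 3 genes left out by symbol encode RNA-binding proteins that shorten the life of cytokine mRNAs. Zfp36 rose from 19.4 ± 0.758 to 35.7 ± 2.23 FPKM and Zfp36l1 from 37.1 ± 5.43 to 106 ± 8.05 FPKM, while Zfp36l2 fell from 105 ± 8.23 to 34.0 ± 2.68 FPKM (adjusted p 7.68e-09, 6.35e-09 and 1.21e-10).

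The samples held 28426101 to 64214533 reads on the genes of the table. Of 9 macrophage markers 2 rose (Adgre1 and Cd14) and 6 fell with PLG, and their sum was 5932 to 7452 FPKM untreated and 3140.5 to 3246.5 FPKM with PLG, most of it Lyz2. B cell, T cell and NK cell markers stayed under 1 FPKM in all samples. Among markers of stroma and neutrophils, Pdgfrb rose from 0.253 to 5.18 FPKM, Camp from 0.254 to 2.40 FPKM and S100a8 from 7.07 to 11.9 FPKM (means, adjusted p 1.95e-11, 7.86e-05 and 0.000453). The neutrophil markers S100a9 (means 5.32 untreated and 3.80 FPKM with PLG) and Ngp (2.42 and 2.29 FPKM) did not pass (adjusted p 0.779 and 0.781). Col1a1, Col1a2, Mpo, Ly6g and Prtn3 stayed under 1 FPKM in all samples. The part of these markers in the results was not tested. The 3 repeat-like gene models Gm10800, Gm10801 and Gm21738 took 0.1303% to 5.915% of the reads, and least in untreated replicate 2 and PLG replicates 3 and 4. Without these 3 samples 35 of the 48 rises and 34 of the 41 falls were still called, and the calls of Zfp592 and Zfp451 were lost (adjusted p 0.111 and 0.0632).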

How the data were processed

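Total RNA of 10 mouse macrophage samples was sequenced. The authors deposited FPKM per protein-coding gene with its length and position, using the build GRCm38.p6, STAR 2.7.3a and featureCounts 2.0.0 among other tools listed in the submitters' processing notes without their roles (DESeq2 1.24.0, cutadapt 2.10 and FastQC 0.11.9). The counting of strand and of multiply matching reads is not given in the sources used here. Overlapping, antisense and duplicated genes may exchange reads. The members and gene lists were chosen with earlier results of these data known. Bands of level and finger number, the minimum run of 5, the 50-base measure and the letter patterns were chosen after seeing the data.

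Genes at 1 FPKM or more in at least 5 of 10 samples (9997) were tested with limma 3.58.1 (R 4.3.3) on log2(FPKM + 1), with a mean trend, Benjamini-Hochberg adjustment over all of them and a threshold of 0.05. Fold changes on this scale understate the change of low genes. Levels are FPKM means ± SD of 5 samples. Named genes were the 10 largest rises and falls without overlap of groups, the 6 most abundant members, the 6 with the smallest change among those at 5 FPKM or more, all members of the role lists, the cofactors with the smallest p (8) and the most abundant that did not pass (4), and the 3 genes either side of the level. Other members and cofactors in the text were chosen after their values were seen. The members were those of runs, Zfp821 and Zfp296. The cofactors were Atrx, Uhrf1, Setdb1, Mphosph8, Morc2a, Cbx1, Cbx3, Ehmt1, Ehmt2, Suv39h1, Suv39h2, Chd4, Hdac1, Hdac2, Rbbp4 and Mta1.

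Low FPKM values were whole multiples of 1 read (100% of those tested, within 0.1 read), which gave 31977187 to 70736915 reads as denominators. Fingers were found as C, 2 to 4 residues, C, 12 residues, H, 3 to 5 residues, H in GENCODE M21 translations, since no protein table was used. The KRAB box was to be found by a regular expression, which missed known KRAB genes, so a profile built from its 129 matches was searched instead (pyhmmer 0.12.3, E value up to 0.001). A gene without a match may still have a box. Promoter windows are from RefSeq (GRCm38.p6). The fit was tested on simulated data, in which 7 of 9797 unchanged genes were called. Alternatives changed the pseudocount, filter, scaling, length and GC trends, variance model, replicate block and samples, 26 fits in all, of which those on repeat-like genes were chosen after seeing the data.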

Additional observations from a re-analysis of the deposited data

Results flagged for a closer look

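In 5 of 134 groups of 5 samples examined, 1 sample lay far from the other four by Dixon's test (critical value 0.71), where chance gives about 1 in 20 groups. Zfp217 was low in untreated replicate 2, at 14.052 FPKM against 14.766 to 14.992 in the others. Zfp715 was high in the same library, at 11.466 FPKM against 10.087 to 10.406. Zfp703 was high in PLG replicate 1, at 25.207 FPKM against 22.158 to 22.772. Zfp207 was high in PLG replicate 3, at 23.757 FPKM against 22.661 to 22.906. Zfp292 was low in untreated replicate 3, at 4.556 FPKM against 5.781 to 6.154. The calls of Zfp217, Zfp703 and Zfp715 passed in every alternative fit, those without these libraries included.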

How the results depend on the processing

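Of 89 called members, 33 lost the call in 1 or more of the 26 alternative fits and none turned its sign. With a filter of 5 FPKM only 63 members were tested, of which 19 rose and 17 fell, with a median of 0.0577. That is 57.1%, against 67.9% of all genes under that filter. A fold of at least 1.5 left 13 and 9, against 14.5% and 13.3% of all genes. The 9 include Zfp395 and Zfp970, which had to differ. In the 229 members that reached 1 FPKM in both groups the counts were 13 and 7. Scaling to a common sum left 26 falls beside 40 rises (28.4%, against 47.4% of all genes), and the cause was not tested. Among all genes it left 2182 falls beside 2556 rises. The median was -0.0223 with the length trend removed and -0.0333 with the repeat-like models removed, beside -0.0625 and -0.074 over all genes in the same fits. Leaving out 1 library at a time gave 37 to 50 rises, 36 to 46 falls, medians of -0.00291 to 0.0439 and 17 to 20 called cofactors. Same-numbered samples did not pair (correlations -0.1208 to 0.0988), and with a replicate block 43 rose and 37 fell. Of the role-list genes, Zfp263 lost its call without untreated replicate 2 or 4 or PLG replicate 1, 3 or 4 (adjusted p 0.0556 to 0.0811), and Zfp518a without untreated replicate 4 or 5 or PLG replicate 1, 2 or 4 (0.0502 to 0.0659). Zfp263 passed in 13 of 26 alternative fits and Zfp518a in 17 of 25. Depth limits the genes near 1 FPKM, where 1 read per kilobase is worth 0.0141 to 0.0313 FPKM.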
